A study of Homo sapiens with 18 samples.

Results

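The genes described are 10 that move, store or sense iron or open the haem ring: TFRC, SLC11A2, CYBRD1, FTL, FTH1, SLC40A1, HEPH, HMOX1, ACO1 and IREB2. A probe set was taken for a gene where the platform annotation gave it that 1 symbol and no other. This gave 21 probe sets for 8 of the 10 genes, out of 19775 genes with such a probe set. FTH1 and IREB2 had none under this rule and were not analysed here. Of the 8 genes, 7 passed the filter on dim probe sets and were tested among 12317 genes, and CYBRD1 did not pass it.

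Caco-2 is a line of human colon epithelial cells used as a model of the absorptive enterocyte. The cells were kept in riboflavin-free DMEM (depleted) or in complete DMEM (control) for 24, 48 or 72 h, both with foetal calf serum, and their RNA was measured on expression arrays. Dialysed serum was used for some cultures, and the labels do not say which arrays this concerns. There were 6 groups of 3 arrays, numbered 1 to 3 here by the order of the running numbers in the titles. The 6 arrays that share a number are called a set. Nothing in the labels says whether the 3 arrays of a group came from separate cultures, so the spread behind each p-value may be technical. The number of arrays limits the precision.

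Iron enters an enterocyte from the gut after reduction at the brush border, and other cells take it up bound to transferrin. It is stored inside ferritin, leaves through ferroportin, and is oxidised by hephaestin as it leaves. Inside the cell, iron regulatory proteins bind stem-loops in the mRNAs of several of these genes: they block translation of the ferritins and ferroportin and stabilise the transferrin receptor mRNA when iron is scarce. Riboflavin is the vitamin from which cells make FMN and FAD, and lack of it is known to impair the absorption and mobilisation of iron.

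The arrays of set 2 stood apart. Their median signal was 25.7 to 31.3 and their highest signal 27380.2 to 31409.8, against medians of 18.4 to 22 and highest signals of 7668.7 to 8574.5 in set 1. In set 3 the medians were 19.1 to 23.3 and the highest signals 6904.8 to 8357.9. All 18 arrays resembled their own set best, so each test is given without and, where the call changes, with the set as a block. EPCAM, a defining gene of epithelium, had a mean signal of 7117, and of the 11 colon epithelium markers 10 passed the filter, all but LGALS4. Of those that passed, KRT20 (mean signal 23.1) and CDX1 (25.9) lay close to the filter signal of 19.6, and LGALS4 had 13.6. Of 4 leukocyte markers 3 passed (LYZ at 193, CD14 at 83.8 and CD3E at 27.5), while PTPRC, the pan-leukocyte gene, had 6.6. Their summed signal was 267.1 to 434.6 in depleted cells, against 200 to 366.8 in control cells. Of 6 fibroblast markers 4 passed, led by COL1A1 at 278 and COL3A1 at 150, with a sum of 351.7 to 623.1 in depleted cells, against 464.5 to 738 in control cells. Of 3 endothelial markers 1 passed (PECAM1) and of 3 erythroid markers 2 (HBB and SLC4A1). The part of these markers in the results was not tested.

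Averaged over the 3 times, 2 of the 7 tested genes passed the test (limma, adjusted p under 0.05 over all probe sets): SLC40A1, which encodes ferroportin, the only known iron exporter, was higher in depleted cells, and ACO1, which encodes iron regulatory protein 1, was lower. Of all genes tested 4.64% passed, 2.48% higher and 2.16% lower. With the set as a block HMOX1, the inducible haem oxygenase, and HEPH, the ferroxidase hephaestin, also passed, both higher, which made 4 of 7 against 17.2% of all genes. TFRC, SLC11A2 and FTL passed in neither fit. The median change of the 7 genes was 0.18 on the log2 scale, with 5 of 7 above 0, and the median of all genes tested was 0.0017. In RNA from whole cultures, fewer cells that express a gene and less of its RNA per cell cannot be told apart.

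**Figure D1:**
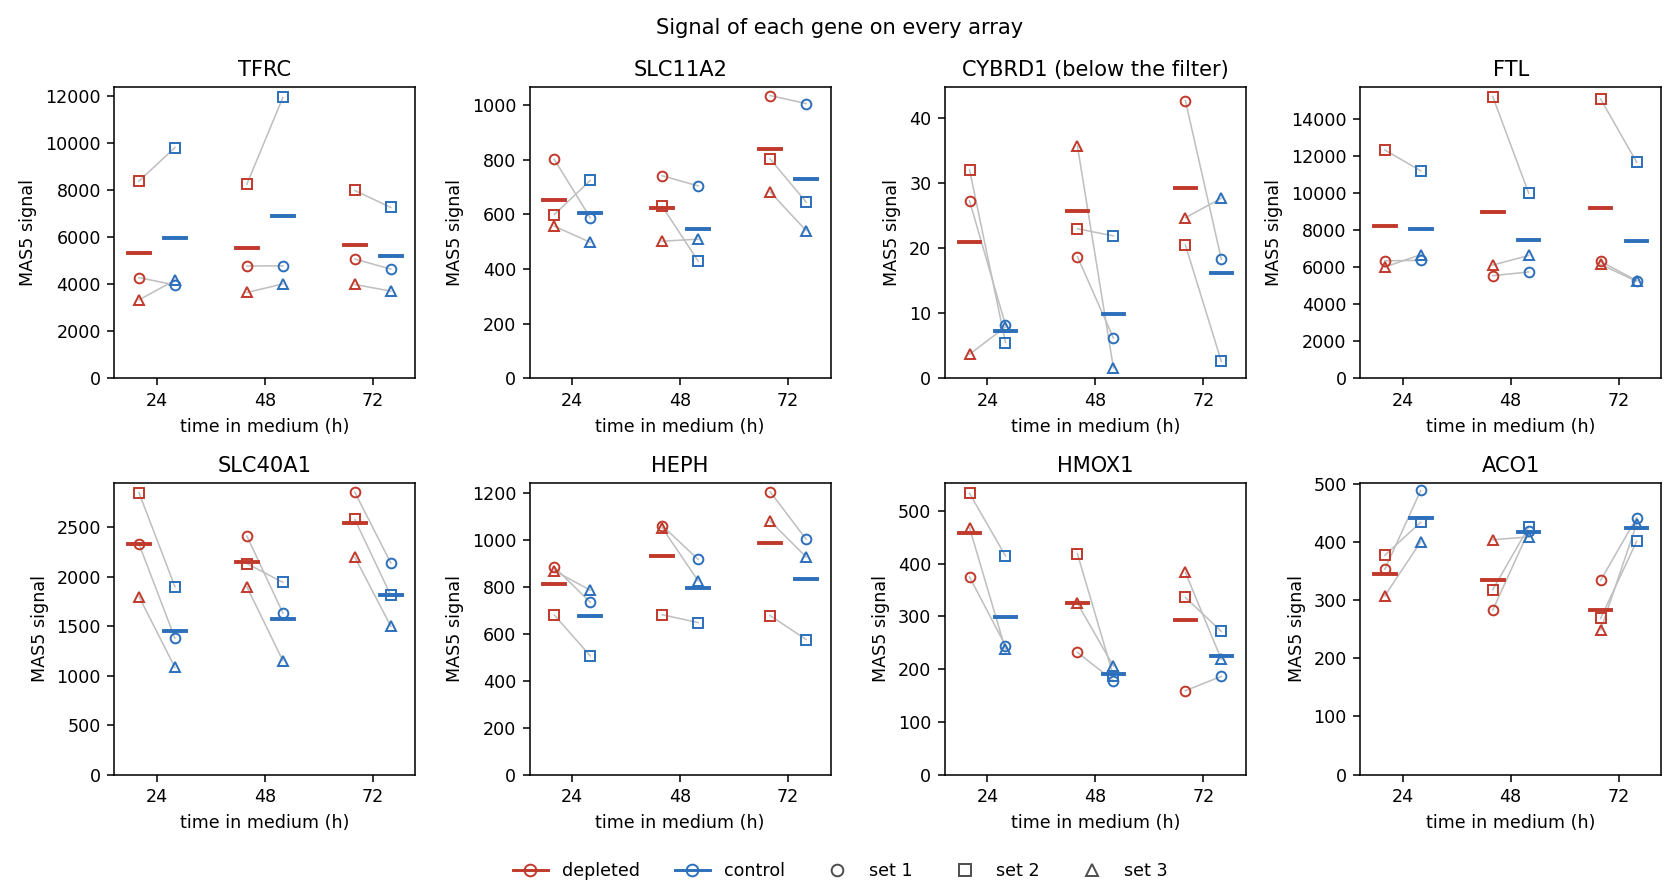
MAS5 signal (linear axis from 0) of 8 genes on every array against time in medium (h). Red marks are depleted and blue marks control cells, the shape gives the set, bars are group means (n = 3) and grey lines join the arrays of 1 set. SLC40A1 is higher in the depleted array of all 9 pairs, ACO1 is lower in all 9, and set 2 stands far above the others for TFRC and FTL.

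In the tested probe sets of the uptake genes TFRC and SLC11A2 no difference passed, with or without the block. TFRC encodes transferrin receptor 1, which carries iron-loaded transferrin into the cell. At 24 h its signal was 4274.7, 8369.5 and 3329.5 in depleted cells (sets 1, 2 and 3), against 3960.3, 9795.7 and 4160.1 in control cells. The 48 h values were 4766.5, 8241.9 and 3642.4 in depleted cells, against 4773.1, 11923.6 and 4005.9 in control cells. The arrays of set 2 were the highest of every group, and depleted and control cells overlapped at both times. At 72 h the signal was 5059.5, 7972.3 and 3982.4 in depleted cells, against 4636, 7252.7 and 3701.5 in control cells. Here the depleted array was the higher one in all 3 sets, while at 48 h it was the lower one in all 3.

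The averaged log2 change of TFRC was -0.08 (SE 0.28), with a 95% interval of -0.67 to 0.50 and an adjusted p of 0.927 in limma. With the set as a block the interval narrowed to -0.28 to 0.11. A second TFRC probe set had a mean signal of 3051 and spread less over the sets. Its signal at 24 h was 2855.7, 3043.3 and 2485.5 in depleted cells, against 2973.4, 3140.7 and 2797 in control cells, so the depleted array was lower in every set. The 72 h values were 3477, 3102.4 and 2802.7 in depleted cells, against 2966.9, 2672.5 and 2475.1 in control cells, and the depleted array was higher in every set. The difference between these effects was 0.30 (SE 0.27) and did not pass (limma, adjusted p = 0.815, and 0.443 with the block). Another tested TFRC probe set, with a mean signal of 704, had an averaged change of 0.01 (SE 0.22, limma adjusted p = 0.986). The remaining ones were too dim for the filter, with mean signals of 13.6 and 9.19. Their depleted array was lower in 8 of 9 and in 4 of 9 pairs. Without the filter they changed by -0.435 and 0.25 (limma, adjusted p = 0.447 and 0.731).

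SLC11A2 encodes DMT1, the proton-coupled carrier that brings ferrous iron across the brush border and out of endosomes. Its signal was 802.1, 599.4 and 557.1 in depleted cells at 24 h, against 588.2, 724.6 and 498.1 in control cells. After 48 h it was 741.9, 630 and 502.1 in depleted cells, against 704.5, 429 and 509.5 in control cells. The groups overlapped at both times, with the depleted array lower in set 2 at 24 h and in set 3 at 48 h. After 72 h it was 1035.4, 803.4 and 682.5 in depleted cells, against 1006.1, 645.4 and 541.1 in control cells, again with overlap. The depleted array was higher in 7 of 9 pairs, and the averaged log2 change of 0.18 (SE 0.16) did not pass (limma, adjusted p = 0.634). Its interval was -0.15 to 0.51, or -0.04 to 0.39 with the block.

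SLC11A2 had 4 tested probe sets, and their averaged changes lay between 8e-04 and 0.25, none of them past the test. Another was too dim for the filter. Its signal at 24 h was 44.7, 54.7 and 18.3 in depleted cells, against 28.8, 8.1 and 6.3 in control cells. At 72 h it was 2.1, 2.5 and 2.6 in depleted cells, against 33.4, 17 and 21.7 in control cells. The depleted array was higher in every set at 24 h and lower in every set at 72 h. In a fit without the filter the log2 change was 0.87 at 24 h and -1.10 at 72 h (limma, adjusted p = 0.645 and 0.142, and 0.210 and 0.0313 with the block). The change of the effect from 24 h to 72 h was -1.97 (limma, adjusted p = 0.132, and 0.0259 with the block), and within depleted cells 72 h minus 24 h was -1.52 (0.0508, and 0.00881 with the block). The depleted signals at 72 h lie under the pseudocount of 16, which therefore sets the size of these changes. The platform gives this probe set the same symbol, and which transcripts of SLC11A2 each probe set detects was not looked up here.

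CYBRD1 encodes duodenal cytochrome b, a haem protein that reduces ferric iron at the brush border. Its brighter probe set was near background. The signal was 27.3, 32.1 and 3.7 in depleted cells at 24 h, against 8.2, 5.5 and 7.9 in control cells. The 48 h values were 18.7, 23 and 35.7 in depleted cells, against 6.2, 21.9 and 1.6 in control cells. At 72 h it was 42.7, 20.5 and 24.7 in depleted cells, against 18.3, 2.6 and 27.7 in control cells. The depleted array was higher in 7 of 9 pairs. A fit without the filter gave an averaged log2 change of 0.62 (SE 0.22), which did not pass (limma, adjusted p = 0.211, and 0.147 with the block). The other CYBRD1 probe set had a mean signal of 4.28.

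FTL encodes the light subunit of ferritin, the shell in which cells store iron. Its mRNA carries an iron-responsive element near the cap, and the 30 bases 21 to 50 after the RefSeq start hold the CAGTGN loop of that element, shown in capitals (RefSeq, GRCh38.p14, chr19:48965329-48965358, plus strand).
FTL: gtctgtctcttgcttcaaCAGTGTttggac
These letters stood within 50 bases after the start in 6.48% of the 35116 RefSeq start windows. The array measures the amount of the mRNA, while this element is known to act on its translation, which was not measured.

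The FTL signal was 6346.2, 12338.5 and 6011.2 in depleted cells at 24 h, against 6379.2, 11217.1 and 6683.1 in control cells. After 48 h the signal was 5546.7, 15229.7 and 6119.1 in depleted cells, against 5748.5, 10003.9 and 6639.3 in control cells. At both times only set 2 had the higher signal in the depleted array. The 72 h values were 6317.2, 15090.1 and 6155.6 in depleted cells, against 5281.9, 11679.9 and 5242.2 in control cells, and the depleted array was higher in all 3 sets. The averaged log2 change was 0.14 (SE 0.26, 95% interval -0.42 to 0.70) and did not pass (limma, adjusted p = 0.857, and 0.336 with the block). Without set 2 it was 0.03 (SE 0.10, limma adjusted p = 0.928). The FTL signals of sets 1 and 3 lay near the highest on those arrays (7668.7 to 8574.5 and 6904.8 to 8357.9). Whether differences were compressed there was not tested. A second FTL probe set had a log2 change of 0.23 (SE 0.14), also short of the test (limma, adjusted p = 0.430, and 0.220 with the block). Both are of a kind that the array's maker marks as possibly detecting related sequences, and ferritin light chain has many processed copies in the genome, so their signals may not be from FTL alone.

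Ferroportin mRNA was more abundant in depleted cells in every set at every time. At 24 h the SLC40A1 signal was 2332.5, 2850.9 and 1800.1 in depleted cells, against 1378.5, 1898.9 and 1082.3 in control cells. The 48 h signals were 2411.4, 2133.4 and 1898.6 in depleted cells, against 1633.6, 1943.3 and 1150.7 in control cells. At these times the lowest depleted array fell just under the highest control array, that of set 2. At 72 h the signal was 2854.6, 2579.8 and 2197.6 in depleted cells, against 2138.7, 1810.7 and 1499.5 in control cells, without overlap, as for 23.2% of all genes at this time.

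Averaged over time, SLC40A1 was 1.46-fold higher in depleted cells, a log2 change of 0.55 (SE 0.15, 95% interval 0.23 to 0.86, limma adjusted p = 0.0472, and 0.00164 with the block). All 9 pairs went the same way, as did 3.79% of all genes in the upward direction. The changes were 0.69 at 24 h, 0.47 at 48 h and 0.49 at 72 h (SE 0.26 each), and 24 h alone passed with the block (limma, adjusted p = 0.0386, and 0.445 without it). The call held in 3 of 18 fits that each left out 1 array without the block and in 18 of 18 with it. Without the block it was lost when arrays were centred on their 75th percentile (adjusted p = 0.134), with no filter (0.0918) and with a pseudocount of 1 (0.0626). Without a whole set the unblocked call was lost each time (limma, adjusted p = 0.0777 to 0.407), and the blocked one was lost without set 1 (0.53, adjusted p = 0.0797) and set 3 (0.49, adjusted p = 0.105) and held without set 2 (0.62, adjusted p = 0.00419).

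A second SLC40A1 probe set, with a mean signal of 47.4, differed most at 72 h. Its signal there was 58.9, 86 and 76.1 in depleted cells, against 29.1, 29.1 and 38.1 in control cells. The depleted arrays were all above the control arrays, and for 23.2% of all genes the groups did not overlap at this time. The log2 change was 0.89 (SE 0.27, limma adjusted p = 0.0787, and 0.0190 with the block). At 24 h this probe set did not follow the brighter one, with 21.9, 54.7 and 53.4 in depleted cells, against 46.6, 56 and 37.5 in control cells. Its averaged change of 0.40 (SE 0.16) did not pass (limma, adjusted p = 0.190, and 0.0578 with the block).

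**Figure D2:**
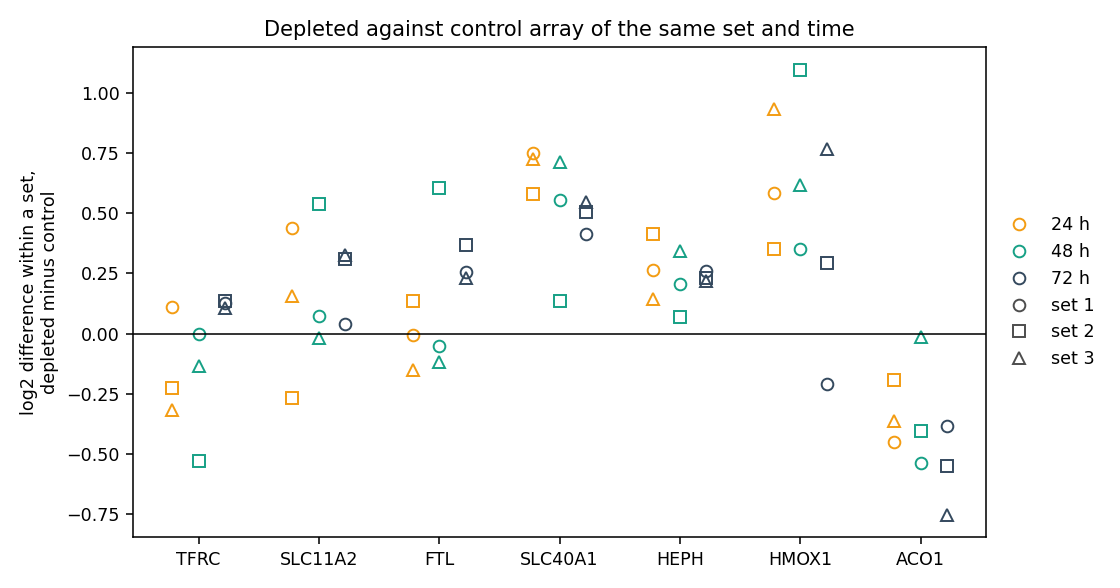
Log2 difference, depleted minus control, within each set at each time, for 7 tested genes. Colour gives the time (h) and shape the set. All 9 points of SLC40A1 and HEPH lie above 0 and all 9 of ACO1 below it, while TFRC, SLC11A2 and FTL fall on both sides.

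HEPH encodes hephaestin, the membrane-bound copper ferroxidase that works beside ferroportin at the basolateral side of the enterocyte. Its signal was 885.7, 681.1 and 870.1 in depleted cells at 24 h, against 735.6, 506.7 and 787.1 in control cells. At 48 h it was 1062.9, 682 and 1053.1 in depleted cells, against 918.3, 648.7 and 827 in control cells. Set 2 was the lowest of every group, and the groups overlapped at both times. At 72 h the signal was 1207.5, 678.8 and 1082.5 in depleted cells, against 1004.8, 576.3 and 928.6 in control cells, with overlap too.

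The depleted array was nonetheless higher in all 9 pairs, as for 3.79% of all genes. The averaged log2 change of HEPH was 0.24, or 1.18-fold, and it passed only with the set as a block (limma, adjusted p = 0.0437, SE 0.07, against 0.506, SE 0.16, without it). The change was 0.27 at 24 h, 0.21 at 48 h and 0.24 at 72 h (SE 0.28 each). These values moved widely when 1 array was left out, from 0.08 to 0.39 at 24 h, from 0.07 to 0.41 at 48 h and from -0.0067 to 0.48 at 72 h, with the lowest in each case without the control array of set 2. The blocked call was lost in 15 of 18 fits without 1 array (adjusted p of 0.0408 to 0.0929 over the 18) and without each set (limma, adjusted p = 0.0843 to 0.292). A second HEPH probe set was too dim for the filter, with a mean signal of 17.7, and did not follow the brighter one. There the depleted array was lower in 6 of 9 pairs, among them every set at 24 h. A fit without the filter gave it an averaged log2 change of -0.15 (SE 0.19, limma adjusted p = 0.872, and 0.763 with the block).

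HMOX1 encodes haem oxygenase 1, the inducible enzyme that opens haem to biliverdin, carbon monoxide and iron with electrons from the flavoprotein POR. Its signal was 375, 533.7 and 468.5 in depleted cells at 24 h, against 244.6, 414.9 and 237.3 in control cells. The 48 h values were 231.7, 418.8 and 324.8 in depleted cells, against 178.2, 187.1 and 205.8 in control cells. Every depleted array exceeded every control array at 48 h, as for 11.3% of all genes in either direction, while at 24 h set 1 of the depleted cells lay below set 2 of the control cells. At 72 h the signal was 159.1, 336.1 and 383.6 in depleted cells, against 186.4, 271.5 and 218.5 in control cells, and set 1 went the other way.

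The averaged log2 change of HMOX1 was 0.53 (SE 0.18, 95% interval 0.16 to 0.91), 1.45-fold higher in depleted cells and in 8 of 9 pairs. It did not pass without the block (limma, adjusted p = 0.107) and passed with it (adjusted p = 0.0104). The blocked call held in 18 of 18 fits without 1 array, and was lost without set 1 (0.68), set 2 (0.51) and set 3 (0.41), with a limma adjusted p of 0.0552, 0.0673 and 0.169. The changes were 0.62, 0.69 and 0.28 at 24, 48 and 72 h (SE 0.31 each), none past the test with or without the block. The value at 72 h was 0.65 without the depleted array of set 1 and 0.06 without that of set 3. Within depleted cells the signal averaged 293 ± 118 at 72 h and 459 ± 80 at 24 h (SD, n = 3 each), a log2 change of -0.69 that did not pass (limma, adjusted p = 0.308, and 0.0525 with the block).

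ACO1 encodes a protein with a pair of states: with an iron-sulphur cluster it is the cytosolic aconitase, and without it iron regulatory protein 1. By its brightest probe set, ACO1 mRNA was lower in the depleted array of all 9 pairs, as for 5% of all genes in that direction. At 24 h its signal was 353.1, 377.2 and 307.3 in depleted cells, against 488.8, 434.1 and 400.6 in control cells. After 48 h it was 282.9, 318 and 404 in depleted cells, against 418.8, 425.9 and 408.8 in control cells. After 72 h it was 334.2, 268.7 and 248.9 in depleted cells, against 441.8, 401.3 and 431.1 in control cells. Depleted cells lay wholly below control cells at each time, as for 0.755% of all genes, though at 48 h set 3 differed by little.

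The averaged log2 change of ACO1 was -0.41 (SE 0.11, 95% interval -0.64 to -0.18), or 1.33-fold lower in depleted cells (limma, adjusted p = 0.0415, and 0.00958 with the block). The changes were -0.34, -0.32 and -0.56 at 24, 48 and 72 h (SE 0.19 each), of which 72 h passed with the block alone (limma, adjusted p = 0.0311, and 0.108 without it). The averaged call held in 3 of 18 fits without 1 array, and in 18 of 18 with the block. Without the block, centring on the 75th percentile (adjusted p = 0.0596) and leaving out the filter (0.0900) ended it. Without set 1, 2 or 3 the change was -0.38, -0.42 and -0.42, and the call was lost each time (limma, adjusted p = 0.132, 0.0611 and 0.101 with the block, and 0.130 or more without it). A second ACO1 probe set was too dim for the filter, with a mean signal of 13.8, and did not follow the brighter one. There the depleted array was higher in 5 of 9 pairs. A fit without the filter gave it an averaged log2 change of 0.11 (SE 0.21, limma adjusted p = 0.930, and 0.870 with the block).

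**Figure D3:**
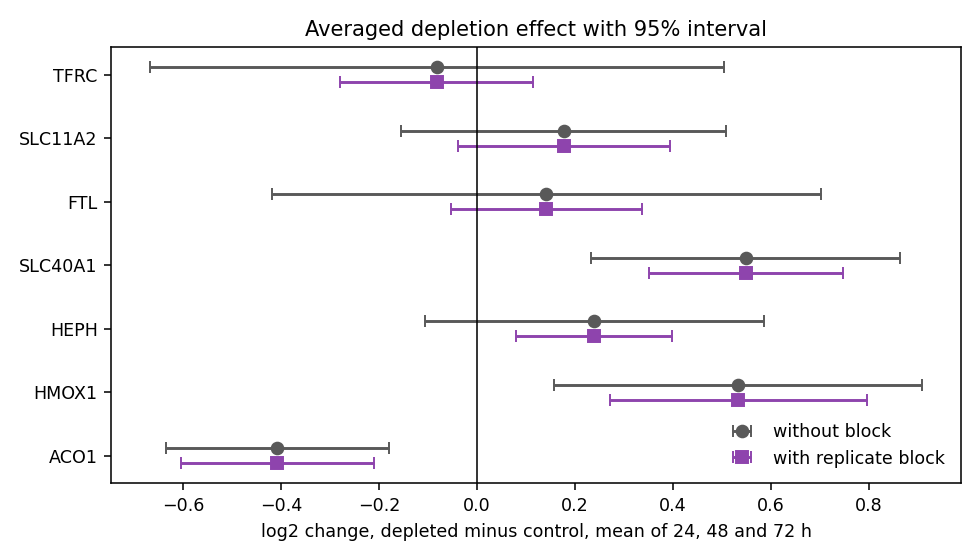
Log2 change, depleted minus control, averaged over 24, 48 and 72 h, for 7 genes with 95% intervals from limma. Grey circles are the fit without and purple squares the fit with the replicate set as a block. The estimates are the same in both and the blocked intervals are narrower, so that those of HMOX1, SLC40A1 and ACO1 exclude 0 in both fits and that of HEPH in the blocked fit alone.

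The genes closest to ACO1 over the 18 arrays, once each set's mean was taken away, were HIPK2 (Pearson r = 0.91), STARD7 (0.91) and CYP4X1 (0.89) among 12310 genes. Those closest to HMOX1 were HTR7P1 (r = 0.87), ICA1L (0.87) and RAB15 (0.86). These values describe the 18 arrays, which share the same RNA for both genes of a pair, and HIPK2 and the others were picked as the highest of all.

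The promoters of both genes called without a block are shown, with GGGCGG on either strand and TATAA in capitals, because they differ in these letters. Each line gives the 250 bases before the RefSeq start (GRCh38.p14), chr2:189580787-189581036 on the minus strand for SLC40A1 and chr9:32384393-32384642 on the plus strand for ACO1.
SLC40A1: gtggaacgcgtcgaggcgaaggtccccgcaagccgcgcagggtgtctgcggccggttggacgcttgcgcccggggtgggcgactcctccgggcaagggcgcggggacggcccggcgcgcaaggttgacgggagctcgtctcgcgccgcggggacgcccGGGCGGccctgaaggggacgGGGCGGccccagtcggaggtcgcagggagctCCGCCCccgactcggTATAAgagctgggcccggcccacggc
ACO1: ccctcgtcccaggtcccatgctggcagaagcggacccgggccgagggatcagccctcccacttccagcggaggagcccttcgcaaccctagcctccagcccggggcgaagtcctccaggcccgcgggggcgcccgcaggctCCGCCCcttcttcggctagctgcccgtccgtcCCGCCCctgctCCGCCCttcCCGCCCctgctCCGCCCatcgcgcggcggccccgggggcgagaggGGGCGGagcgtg
GGGCGG is the core of the GC box, and TATAA is the core of the TATA box. The SLC40A1 promoter holds GGGCGG 3 times and TATAA once, 26 bases before the start. The ACO1 promoter holds GGGCGG 6 times and TATAA not at all. Of the 250 bases before the start in all 35116 RefSeq entries, 42.6% hold GGGCGG and 18.9% hold TATAA on either strand. TGACNNNGC, the core of the antioxidant response element, was in 10.9% of these windows on either strand and in none of those of SLC40A1, ACO1, TFRC and FTL, and the promoter of HMOX1 was not analysed here. Bases further from the start were not searched, so these windows cannot show whether a gene has the element elsewhere. A match is a description of these letters, and no binding was measured.

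At single times none of the 7 tested genes passed without the block. The number with an unadjusted p under 0.05 in limma was 1 at 24 h, 1 at 48 h and 1 at 72 h, and 2 at each time with the block. With the block 1 passed at 24 h (SLC40A1), 0 at 48 h and 1 at 72 h (ACO1). Of all genes tested, 0.3%, 0.106% and 4.38% passed at 24, 48 and 72 h without the block, and 2.96%, 0.812% and 14.9% with it. The change of the depletion effect from 24 h to 48 h or 72 h passed for 0 of the 7 genes with or without the block, with 0 at an unadjusted p under 0.05 in either limma fit. Of all genes 0% changed their effect at 48 h in either fit, and 0.714% at 72 h (5.33% with the block). From 24 h to 72 h, 0 of the 7 passed within depleted cells (1 at an unadjusted p under 0.05 in either limma fit) and 0 within control cells (0 at an unadjusted p under 0.05, and 1 with the block), against 1.98% and 0.195% of all genes without the block.

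Other genes of iron handling were read from lists of each step. Of 10 tested genes of the transferrin cycle and cellular iron entry, 1 passed in the averaged effect, STEAP1, which was lower. It belongs to a family of membrane proteins, some of which reduce iron and copper. Its signal at 72 h was 286.5, 246.9 and 253.8 in depleted cells, against 434.5, 356.8 and 439.3 in control cells. The groups did not overlap, as for 23.2% of all genes at this time. The averaged log2 change of STEAP1 was -0.54 (SE 0.11, limma adjusted p = 0.0123). STEAP3, the endosomal ferrireductase of the transferrin cycle, had a log2 change of -0.13 and did not pass (limma, adjusted p = 0.780). With the block LRP2, the endocytic receptor megalin, passed as lower too (-0.77, limma adjusted p = 0.00659, and 0.0906 without). The median of the list was -0.20.

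The list of iron chaperoning, ferritin turnover and iron sensing also held redox regulators, and 1 of its 12 tested genes passed. This was TXNIP, a thioredoxin-binding protein of the arrestin family and not itself an iron chaperone or sensor. Its log2 change was 0.62 (SE 0.14, limma adjusted p = 0.0184). The iron chaperones PCBP1 and PCBP2 passed in neither fit. With the block 4 passed, all higher: TXNIP, EPAS1, NFE2L2 and BACH1. EPAS1 encodes HIF-2 alpha, which drives iron absorption genes in the enterocyte, and it changed by 0.32 (limma, adjusted p = 0.0150 with the block and 0.0867 without). BACH1, the haem-sensitive repressor of HMOX1, changed by 0.49 (adjusted p = 0.0373 with the block and 0.0986 without). NFE2L2, which encodes NRF2, changed by 0.34 (adjusted p = 0.0238 with the block and 0.255 without). NCOA4, the receptor that delivers ferritin for breakdown, had a log2 change of -0.10, and FBXL5, the iron-sensing ubiquitin ligase adaptor that degrades iron regulatory protein 2, one of 0.16, neither past the test. The median was 0.14.

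Of 7 tested systemic regulators and iron oxidases, 0 passed in limma, with 0 at an unadjusted p under 0.05 (with the block also 0, with 1 at an unadjusted p under 0.05). The smallest p-values belonged to NEO1, HFE and CP, with changes of -0.20, -0.33 and -0.28. Of 24 tested genes of mitochondrial iron import and iron-sulphur cluster assembly, 0 passed, with 2 at an unadjusted p under 0.05. With the block IBA57 (-0.40) and BOLA3 (-0.31), which serve the late steps of cluster assembly, passed as lower. SLC25A37, next by p, changed by 0.25 and passed in neither fit. ISCU, the scaffold on which clusters are built, had a log2 change of 0.11 and passed in neither fit. The medians were -0.15 for the systemic genes and -0.06 for the mitochondrial ones.

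Of 9 tested genes of haem synthesis 0 passed in the averaged effect in limma (2 at an unadjusted p under 0.05), and with the block CPOX was lower and CLPX higher. At 72 h 1 passed, ALAD, the enzyme that makes porphobilinogen, which is named here after its values were seen. Its signal at 72 h was 74.3, 97.4 and 75.5 in depleted cells, against 168.3, 150.7 and 166.8 in control cells. The groups did not overlap, as for 23.2% of all genes at this time. At 24 h it was 159.5, 186.6 and 122.1 in depleted cells, against 119.7, 83.9 and 118.5 in control cells. These did not overlap either, but the other way round, and the share of all genes at 24 h was not counted. The log2 change of ALAD at 72 h was -0.86 (SE 0.21, limma adjusted p = 0.0306), and its difference from the change at 24 h was -1.34 (limma, adjusted p = 0.0548, and 0.0158 with the block).

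CPOX, which makes protoporphyrinogen, had a signal of 415.8, 316.3 and 326.4 in depleted cells at 72 h, against 615, 469.4 and 443.4 in control cells. The groups did not overlap, as for 23.2% of all genes at this time. The averaged log2 change of CPOX was -0.45 (SE 0.13, limma adjusted p = 0.0579, and 0.00224 with the block). With the block 5 of the 9 genes passed at 72 h, 4 of them lower, against 14.9% of all genes. The list's median change at 72 h was -0.51, against -0.0375 for all genes tested. The list was not lower as a whole, since 4 of the 9 changes at this time were above 0. ALAS1, FECH, TMEM14C and CLPX were each higher in the depleted array of all 3 sets at 72 h.

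Of 11 tested genes of haem breakdown and transport, 1 passed, CYB5A, cytochrome b5, a haem protein that carries electrons, with a log2 change of -0.52 (SE 0.14, limma adjusted p = 0.0418), a call lost in 14 of 18 fits without 1 array. With the block 4 passed, 1 higher and 3 lower, among them FLVCR1, a haem exporter, at -0.41 (limma, adjusted p = 0.0158 with the block and 0.151 without). HMOX2, the constitutive haem oxygenase, had a log2 change of -0.35 (limma, adjusted p = 0.316, and 0.0769 with the block), against 0.53 for HMOX1. The flavoenzymes that meet these pathways were read as a list too: of 11 tested, STEAP1 was lower, and with the block NQO1, a quinone reductase, was higher (0.47, adjusted p = 0.00354, and 0.0709 without). POR, which serves haem oxygenase, had a log2 change of -0.13 (limma, adjusted p = 0.855) and was lower in the depleted array of 8 of 9 pairs, with a difference of 1.46 the other way in set 2 at 48 h.

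**Figure D4:**
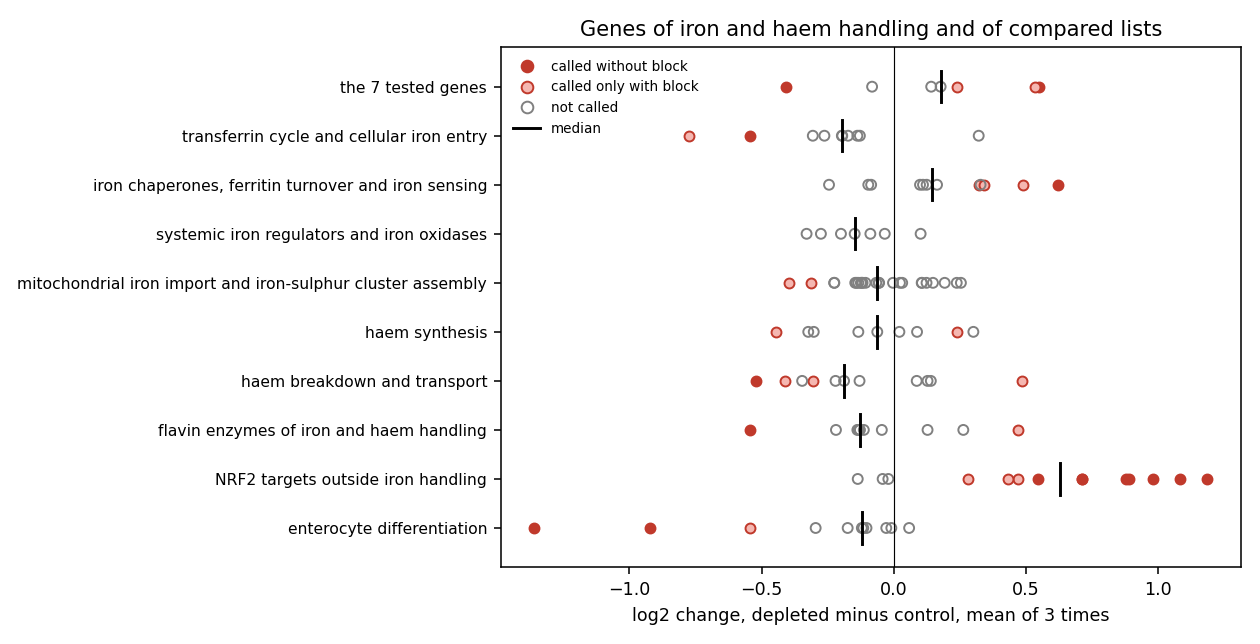
Log2 change, depleted minus control, averaged over 3 times, for the 7 tested genes and for the genes of 9 lists. Filled red circles passed the limma test without the block, pale red circles with the block only, open grey circles in neither fit, and black bars are medians. The NRF2 targets lie furthest to the right, with a median of 0.63, and SI and FABP1 lie furthest to the left.

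Targets of NRF2, the transcription factor that answers electrophiles and oxidants and is known to act on HMOX1, FTL and SLC40A1 too, were the list with the most calls. Of 14 tested targets outside iron handling 8 passed as higher and 0 as lower, against 4.64% of all genes in either direction. With the block 11 passed, against 17.2%, and the median was 0.63. The list was chosen with earlier results of these data known, so its place among the lists is no independent result. SLC7A11, the cystine carrier, changed by 1.19 (SE 0.13, limma adjusted p = 8.83e-05). TXNRD1, a flavin-containing thioredoxin reductase, changed by 0.98 (SE 0.15, limma adjusted p = 0.00165). The others that passed were GCLC (0.88), SRXN1 (0.89), GCLM (0.71), ABCC2 (0.55), OSGIN1 (1.08) and AKR1B10 (0.71). In fits without 1 array, ABCC2 and OSGIN1 each lost the call in 9 of 18 and AKR1B10 in 14 of 18. Beside these, the averaged log2 changes of HMOX1, SLC40A1 and FTL were 0.53, 0.55 and 0.14. By time, the median of the list was 0.16, 0.42 and 0.92 at 24, 48 and 72 h. Its calls without the block were 1, 0 and 7, against 0.3%, 0.106% and 4.38% of all genes. HMOX1 changed by 0.62, 0.69 and 0.28 at these times, and SLC40A1 by 0.69, 0.47 and 0.49. A part of NRF2 in the values of HMOX1, SLC40A1 and FTL was not tested.

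Markers of the mature enterocyte, the cell that absorbs iron, were read because SLC40A1 and HEPH are known to be expressed there. Of 11 tested 2 passed, both lower: SI, the brush border sucrase-isomaltase, at -0.92 (SE 0.14, limma adjusted p = 0.00165), and FABP1, a fatty acid binding protein, at -1.36 (SE 0.34, limma adjusted p = 0.0293). The call of FABP1 was lost in 8 of 18 fits without 1 array and that of SI in none. SI had a signal of 81.8, 63.3 and 35.6 in depleted cells at 72 h, against 317.9, 223.6 and 239.3 in control cells. The groups did not overlap, as for 23.2% of all genes at this time. The median of the list was -0.12. The part of this difference in the values of SLC40A1, HEPH and ACO1 was not tested.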

How the data were processed

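The deposited values were signal intensities on a linear scale, made by the authors with MAS5 per the submitters' processing notes, with the version not given in the sources used here. The 18 arrays held 54675 probe sets, and 0 pairs of arrays were identical. Symbols came from the platform annotation: 41097 probe sets had 1 symbol, 1801 several and 11777 none, 56 of which were controls. Of the first, 41043 were found by Entrez ID in a RefSeq table (GRCh38.p14), and 0 symbols needed updating.

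Signals were used as log2(signal + 16). The 62 control probe sets and those with a mean under the median of all (log2 5.15, signal 19.6) were left out, and 27303 were fitted in limma 3.58.1 under R 4.3.3 with 6 group means, moderated variances and Benjamini-Hochberg adjustment over all of them. The fold changes are on this scale and understate those of dim genes. A gene was read from its brightest tested probe set, and shares of all genes count 1 probe set a gene. The fit without the block was tested on simulated data with independent noise and no set effect. That test therefore does not cover the blocked fit or the likeness of arrays within a set.

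The sample titles carry a running number over all arrays and no replicate number. The sets were inferred by cutting that run, in order, into stretches that each hold an array of every group. Some titles in the set that stood apart carry an added suffix, whose meaning is not given. Deviations from group means correlated at 0.30 to 0.60 within sets (45 pairs) and at -0.75 to 0.16 between sets (108 pairs). Arrays of an inferred set were thus alike, and the block is given as an alternative. The titles do not say whether the arrays of a set were handled together. Others tried were quantile normalization, centring on the 75th percentile, pseudocounts of 1 and 64, no filter, a filter at the 75th percentile, the mean over probe sets, and leaving out arrays and sets. Named were all members, and from each list the genes that passed or else those with the smallest p, and the genes closest to ACO1 (the smallest p) and HMOX1. Genes given for their role or for a blocked call were named with their values seen. The members and lists were chosen with earlier results of these data known. The plots were made in matplotlib 3.10.9 (Python 3.11.15). In the RefSeq promoter table used here 8 of the 10 genes were matched, and HMOX1 and FTH1 were not analysed.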

Additional observations from a re-analysis of the deposited data

Results flagged for a closer look

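GCLM, the modifier subunit of the enzyme that makes the glutathione precursor, was read as an NRF2 target beside HMOX1, and its depletion effect differed between times by a direct test. Its signal at 24 h was 244.3, 178.3 and 242.8 in depleted cells, against 234.9, 167.7 and 241.1 in control cells. At 72 h it was 454.8, 563.1 and 586.3 in depleted cells, against 146.6, 135.8 and 148.1 in control cells. The groups overlapped at 24 h and lay far apart at 72 h. The effect at 72 h minus that at 24 h was 1.73 on the log2 scale (limma, adjusted p = 0.0223, and 0.00184 with the set as a block). For HMOX1 the same difference was -0.34 (SE 0.44, limma adjusted p = 0.895).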

How the results depend on the processing

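In the averaged effect 2 of the 7 tested genes were called. The count was 0 after centring on the 75th percentile, 0 without the filter, 1 with a pseudocount of 1, 4 with the replicate block and 4 with quantile normalization and the block. It ran from 0 to 2 over the fits without 1 array, was 0 without any 1 set, and with the block ran from 3 to 4 without 1 array and from 0 to 1 without 1 set. SLC40A1 and ACO1 each lost the call in 15 of 18 unblocked fits without 1 array. At 24 h the count was 1 with the block and 1 with quantile normalization and the block, against 0. At 72 h it was 1 with a filter at the 75th percentile, 1 with the block and 2 with quantile normalization and the block, against 0. With the block the lists had 2 calls (transferrin cycle), 4 (iron chaperones), 2 (mitochondrial), 2 (haem synthesis), 4 (haem breakdown) and 2 (flavin enzymes). Without 1 set they had 0 for the transferrin cycle, iron chaperone, haem breakdown and flavin lists, 0 to 2 for enterocyte genes and 1 to 6 for NRF2 targets. Signs turned only in uncalled values without 1 array: FTL averaged -0.0125 to 0.269, TFRC averaged -0.210 to 0.0782, and HEPH at 72 h -0.0067 to 0.483. Fits without a set have fewer arrays, and the cause of the other shifts was not tested. Quantile normalization moved the median of all probe sets by -0.03 and centring by -0.05. Detection calls were not used here, so CYBRD1 is limited by its signal near background.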
